A study of Mus musculus with 61 samples.

Results

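The members of the serpin gene family described here are the protein-coding rows of a mouse transcript table whose symbol begins with Serpin, a clade letter from a to i and a number, and that reached at least 1 TPM in at least 2 libraries. TPM is a transcript's share of a library, corrected for transcript length, so that levels can be compared between genes. Of 61 protein-coding rows of that pattern, 31 reached this level and are the members. They comprise 15 of 24 clade A rows, 7 of 26 clade B rows, 2 of 3 clade E rows, both clade F rows, 1 of 2 clade I rows and the single rows of clades C, D, G and H. The other 30 protein-coding rows stayed below that level, and 7 further rows of the pattern carry another biotype in the annotation. The filter used no contrast between groups, but 4 members, Serpina3f, Serpina3k, Serpina3m and Serpina5, reached 1 TPM only in the 2 liver libraries of P0. Just inside it lay Serpina3f and Serpina5, with 2 libraries each at 1 TPM and highest values of 3.59 and 1.8 TPM, and just outside it Serpina3i and Serpini2, with 1 library each and highest values of 1.19 and 1.08 TPM.

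Serpins are a family of proteins that share 1 fold, and most of them inhibit proteases. An inhibitory serpin exposes a reactive loop that a protease cuts, and the cut serpin then changes shape and holds the protease in a covalent complex, so that each molecule works only once. The liver secretes many of the serpins of blood plasma, which control clotting, fibrinolysis, complement and leukocyte elastase, while other members stay inside cells, carry hormones without inhibiting a protease, or act in the brain on plasminogen activators. The genes are grouped in clades, each given a letter, and in mouse several clades have expanded into neighbouring copies.

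The samples are mouse liver, forebrain, midbrain and hindbrain from embryonic days E10.5 to E16.5 and the day of birth, P0, profiled by stranded RNA sequencing of polyadenylated RNA. There are 14 liver libraries at 7 stages from E11.5, and 15 forebrain, 16 midbrain and 16 hindbrain libraries at 8 stages from E10.5, giving 31 groups of 2 libraries each except forebrain E10.5 with 1. No genotype, treatment, strain or sex is given in the sources used here, and nothing says that the 2 libraries of a group came from separate animals, so the p-values below measure the spread between libraries, which may be technical. The table gives TPM and no read counts, so sequencing depth is unknown; between 12104 and 15561 genes were at 1 TPM or more in a library.

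Some libraries stand apart from their labels. The 2 libraries labelled midbrain E15.5 held 87.63 and 78.04 TPM of Hoxb3, a hindbrain gene, and the 2 labelled hindbrain E15.5 held 0.15 and 0.24 TPM, the reverse of E14.5 (2.08 and 0.4 TPM in midbrain, 77.99 and 105.14 TPM in hindbrain), so midbrain and hindbrain results are given with and without these 4. The 6 brain libraries of E12.5 held 3.64 to 112 TPM of albumin (Alb), against a median of 0.81 TPM in the other 41 brain libraries. The liver libraries held 2586 to 79758 TPM of Alb and also 21935 to 250187 TPM of summed red blood cell markers; the fetal liver is a blood-forming organ. Between 21 and 28 members were at 1 TPM or more in a liver library, and between 6 and 17 in a brain library. Serpina6 was the most abundant member in 8 liver libraries, Serpina1b in 4 and Serpina1e in 2, and in every brain library it was Serpinh1 or Serpine2. In 4 midbrain and hindbrain columns the header and the sample title give different stages, E16.5 or P0, and the stage of the header was used.

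Liver and brain differed in most members. Between liver and the average of the 3 brain regions, over the 7 stages that all share, 21 of 31 members were higher in liver, 4 were lower and 6 did not pass (limma on log2(TPM + 1), Benjamini-Hochberg adjusted p below 0.05 over 18655 genes and a change of at least 1 on the log2 scale). Among all genes tested, 53.3% passed the same rule, 9.33% as higher in liver and 44% as lower. The median difference over the 31 members was 1.58 on the log2 scale and over all genes it was -0.82. Of clade A 13 of 15 members were higher in liver and none lower, of clade B 3 of 7 were higher and 1 lower, and of the 9 members of clades C to I 5 were higher and 3 lower. In bulk tissue such as this, a difference in the number of cells of a type and a difference in RNA per cell cannot be told apart. In 15 members the liver libraries did not overlap with the brain libraries of the same 7 stages, and over all genes tested this held for 35.7%.

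**Figure D1:**
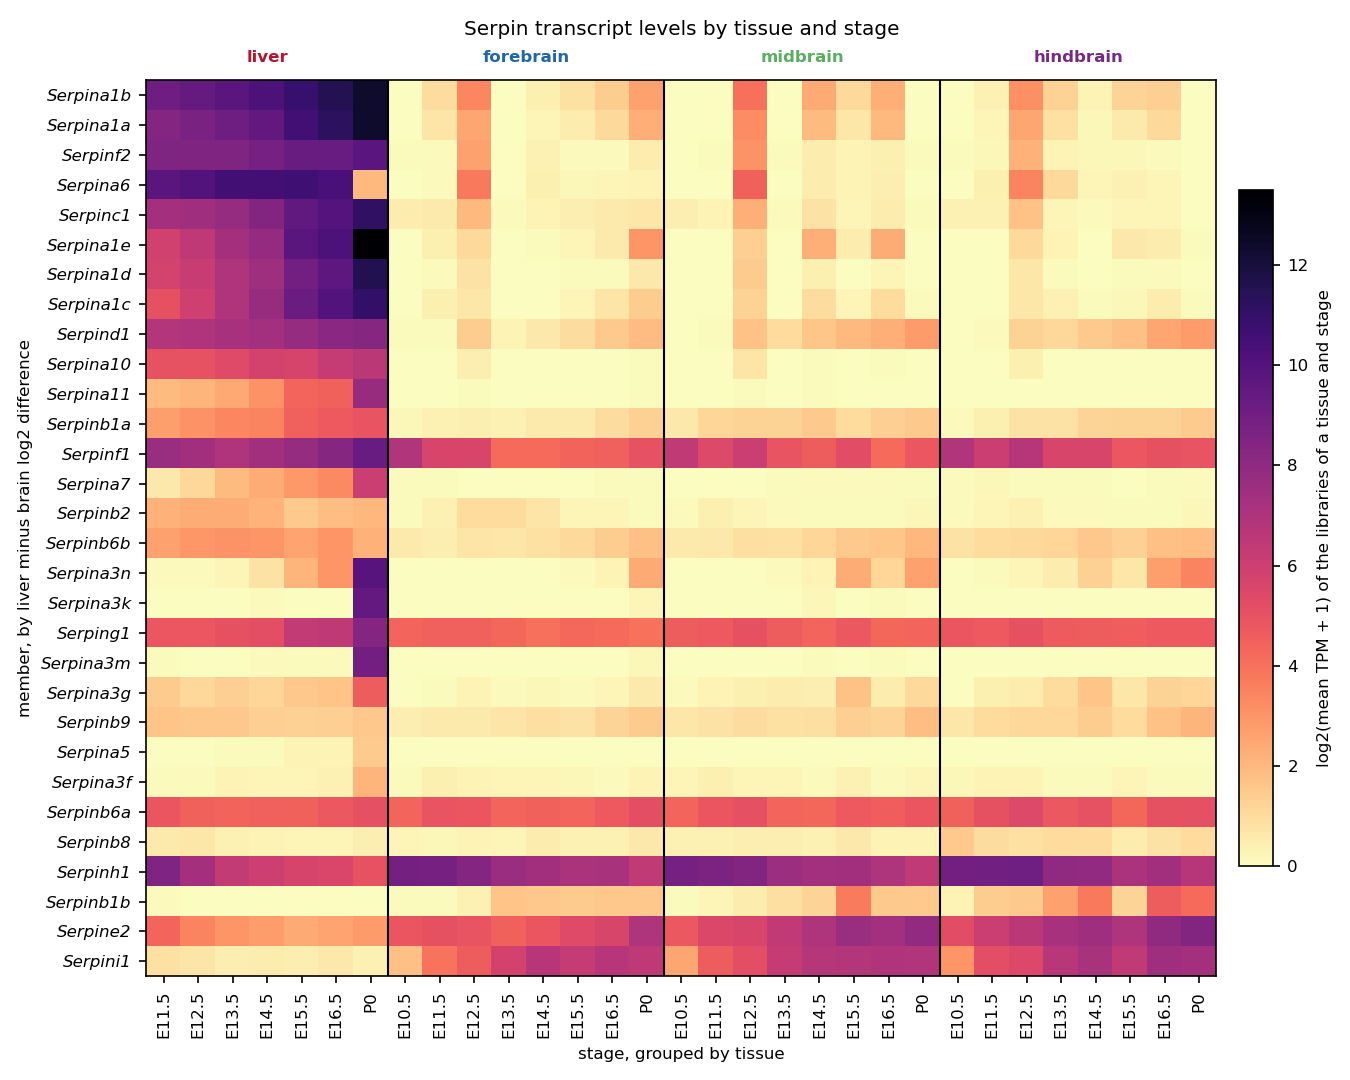
Transcript levels of serpin members (rows, ordered by the liver minus brain difference) in each tissue and stage (columns), as log2 of the mean TPM plus 1 over the libraries of the group. Plasma serpins of clades A, C, D and F fill the liver block at the top left, and Serpini1, Serpine2 and Serpinh1 stand out in the 3 brain blocks at the bottom.

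The plasma antitrypsins, the clotting inhibitors and the steroid carrier were the members furthest above brain in liver. Serpina1b, one of the mouse copies of the antitrypsin gene whose product inhibits neutrophil elastase, ranged from 509.19 TPM through a median of 1152.9 TPM to 5363.67 TPM in 14 liver libraries, and from 0 through 0.53 to 17.98 TPM in 47 brain libraries. Its lowest liver library lay above its highest brain library, and the difference was 9.28 ± 0.19 on the log2 scale (SE; limma adjusted p = 7.07e-32). The difference was 9.07 ± 0.16 for Serpina1a (adjusted p = 5.96e-34), 8.07 ± 0.15 for Serpina1e (1.95e-33), 7.85 ± 0.06 for Serpina1d (3.42e-45) and 7.57 ± 0.09 for Serpina1c (2.05e-39), all by the same limma fit. None of these 5 antitrypsin copies overlapped between liver and brain libraries.

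Serpinf2, which encodes the plasmin inhibitor antiplasmin, had a lowest, median and highest level of 348.49, 449.8 and 1015.32 TPM in liver, against 0.01, 0.15 and 9.89 TPM in brain, a difference of 8.45 ± 0.13 (limma adjusted p = 2.15e-36). Serpinc1, which encodes antithrombin, the main plasma inhibitor of thrombin, had 151.45, 343.6 and 2421.39 TPM in liver and 0.01, 0.24 and 5.45 TPM in brain, a difference of 8.25 ± 0.10 (limma adjusted p = 1.06e-38). Both were clear of overlap, and outside the E12.5 libraries no brain library held more than 0.43 TPM of Serpinf2 or 0.81 TPM of Serpinc1. Serpina6, which encodes the corticosteroid carrier of plasma, had 2.5, 1282.7 and 1569.54 TPM in liver and 0, 0.11 and 25.18 TPM in brain, a difference of 8.37 ± 0.17 (limma adjusted p = 5.39e-32) that was 8.69 without the E12.5 brain libraries. Its groups overlapped, with the 2 liver libraries of P0 below the highest E12.5 brain library.

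The other members higher in liver covered most remaining plasma inhibitors. Serpind1 (heparin cofactor, a thrombin inhibitor), Serpina10 (an inhibitor of clotting factor X bound to protein Z) and Serpina11 were higher by 6.15, 5.55 and 3.70 on the log2 scale with no overlap of libraries, as were Serpina7, the thyroxine carrier (2.52), and the cell-internal Serpinb1a, an inhibitor of neutrophil proteases (2.87), and Serpinb2, an inhibitor of urokinase (1.76). Serpinf1, a secreted factor with no known protease target (2.73), Serping1, the inhibitor of the first complement component (1.34), and Serpinb6b (1.58) were higher with overlap. Serpina3n, Serpina3k, Serpina3m and Serpina3g, relatives of antichymotrypsin, were higher by 1.22 to 1.44, with their liver medians between 0.005 and 1.735 TPM and their highest liver libraries, all of P0, between 28.2 and 1126.29 TPM. In a fit on 44 of the libraries, whose averages hold neither E15.5 nor P0, these 4 and Serping1 no longer passed, at 0.83 for Serpina3g, 0.015 for Serpina3k, 0.064 for Serpina3m, 0.415 for Serpina3n and 0.717 for Serping1.

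Brain held the higher level of 4 members. Serpini1 encodes neuroserpin, an inhibitor of tissue plasminogen activator made by neurons; it had a lowest, median and highest level of 0.26, 0.405 and 0.89 TPM in liver and 2.38, 81.72 and 189 TPM in brain, and was 5.61 lower in liver. Serpine2, protease nexin, which inhibits thrombin and plasminogen activators at the cell surface, had 3.77, 5.955 and 20.25 TPM in liver and 20.97, 76.05 and 353.63 TPM in brain, and was 3.40 lower in liver. Neither gene overlapped between the tissues. Serpinb1b was 1.71 lower in liver, where no library exceeded 0.12 TPM. Serpinh1, the chaperone of collagen folding in the endoplasmic reticulum, was 1.32 lower in liver, but that call was lost under each of the 3 other scalings of the libraries, with differences of -0.13, -0.60 and -0.86. Among the 6 members that did not pass were Serpina3f, Serpina5, Serpinb6a, Serpinb8 and Serpinb9; Serpinb6a was at 19.93 to 33.99 TPM in liver and 17.74 to 42.91 TPM in brain, and passed as higher in liver under median-of-ratios scaling (1.05).

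Within the liver, 21 of 31 members were higher at P0 than at E11.5, 3 were lower and 7 did not pass, where 46.3% of all genes passed, 8.14% as higher and 38.2% as lower. The 21 include the 4 members that reached 1 TPM only at P0, which had to be high there to be members, and of the other 27 members 17 were higher and 3 lower. Counts and medians over the members are a description for this reason. The median change was 1.995 on the log2 scale over the members and -0.69 over all genes. Of clade A 14 of 15 members were higher and 1, Serpina6, was lower. Of clade B 1 of 7, Serpinb1a, was higher. Of clades C to I 6 of 9 were higher and 2, Serpinh1 and Serpine2, were lower. The members together made 3.65% and 3.21% of all transcripts by TPM in the 2 P0 livers, against 0.306% and 0.335% in the 2 E11.5 livers. Summed hepatocyte markers were 179860 and 166537 TPM in the P0 livers, against 12026 and 13074 TPM in the E11.5 livers, with 6 of the 7 markers passing as higher and 1 not passing; the part of this in the serpin changes was not tested.

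The hormone carriers of clade A moved in opposite directions. Serpina6 (ENSMUSG00000060807.7, chromosome 12, 103646630 to 103657212, minus strand, mm10) stood in liver at 809.62 and 863.58 TPM at E11.5, 998.17 and 991.85 TPM at E12.5, 1459.37 and 1553.98 TPM at E13.5, 1535.59 and 1363.9 TPM at E14.5, 1528.7 and 1569.54 TPM at E15.5, 1317.35 and 1248.02 TPM at E16.5, and 2.5 and 3.26 TPM at P0. It was therefore among the most abundant members through E16.5 and nearly gone in both P0 livers. The P0 minus E11.5 change was -7.76 ± 0.56 on the log2 scale (SE, limma adjusted p = 7.84e-15), and the mean at E16.5 was 445 times the mean at P0. Serpina7 (chromosome X, 139079257 to 139085236, minus strand) had 69.9 and 58.69 TPM at P0, against 8.64 and 8.65 TPM at E16.5 and 0.42 and 0.66 TPM at E11.5, and its P0 minus E11.5 change was 5.41 ± 0.08 (limma adjusted p = 2.88e-35). Every 50-base stretch of the annotated transcripts of these 2 genes occurs in no other gene, so their levels do not depend on how reads were divided among copies.

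The 5 antitrypsin copies were the largest serpin product of the late liver. Their summed level was 941.9 and 1079.4 TPM at E11.5, 1293.5 and 1327.4 TPM at E12.5, 1778.7 and 1831.4 TPM at E13.5, 2559.2 and 2420.7 TPM at E14.5, 5454.8 and 5319 TPM at E15.5, 7639.1 and 8958.6 TPM at E16.5, and 29046.2 and 25386 TPM at P0. Serpina1b made 54.1% and 53.5% of that sum at E11.5, 35.9% and 35.2% at E16.5 and 17.6% and 21.1% at P0. Serpina1e made 5.34% and 6.01% at E11.5, 14.8% and 13.2% at E16.5 and 46.1% and 37.9% at P0. The order of the copies thus turned over between E16.5 and P0, and in both P0 livers Serpina1e was the most abundant serpin of all.

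**Figure D2:**
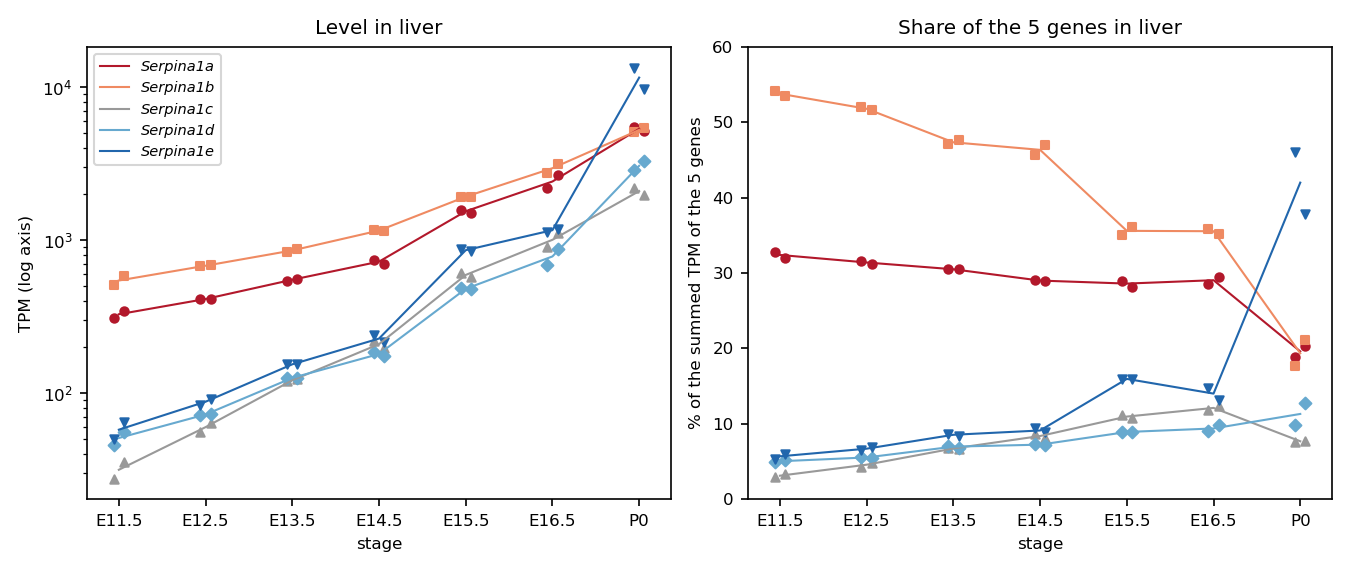
Levels of Serpina1a to Serpina1e in liver by stage (left, TPM on a log axis) and the share of each in their summed TPM (right, in %); points are the 2 libraries of a stage and lines join their means. Serpina1b and Serpina1a lead through E16.5, and Serpina1e leads at P0 with 46.1% and 37.9%.

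Serpina1e (ENSMUSG00000072849.6, chromosome 12, 103946931 to 103958975, minus strand) had 50.3 and 64.88 TPM at E11.5, 239.74 and 213.98 TPM at E14.5, 870.28 and 844.86 TPM at E15.5, 1133.54 and 1185.31 TPM at E16.5 and 13389 and 9631.52 TPM at P0. Its P0 minus E11.5 change was 7.61 ± 0.49 (limma adjusted p = 2.83e-16). Serpina1c changed by 6.01 ± 0.29 (limma adjusted p = 1.64e-19) and Serpina1d by 5.88 ± 0.20 (3.48e-24), while Serpina1a changed by 4.02 and Serpina1b by 3.27. All 5 were higher in both P0 livers than in both E11.5 livers. The copies share most of their sequence: the coding sequences of any 2 are 96.3% to 98.5% identical, and 25.8% of the 50-base stretches of Serpina1c, 42.4% of Serpina1a, 49.1% of Serpina1d, 65.4% of Serpina1e and 70.5% of Serpina1b are found in no other gene. Their summed level is thus firmer than the division among them, which rests on how the deposited estimates shared out reads.

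The sequences before the gene starts are shown because these copies all rose yet changed rank. RefSeq windows (GRCm38.p6) were at hand for 24 of the 31 members; those with no entry include Serpina10, Serpina3m, Serpina3k, Serping1, Serpinb1a and Serpina6. The 250 bases upstream of the annotated starts of Serpina1b (chr12:103738190-103738439, minus strand) and Serpina1e (chr12:103956898-103957147, minus strand) read as follows, 5′ to 3′, with a shared block in capitals that begins with GTTAAT, the HNF1 half-site, bound by a factor of hepatocytes. The RefSeq starts differ from those of the annotation used for the gene spans, so both windows lie inside the spans given there, which end at 103830373 for Serpina1b and 103958975 for Serpina1e.
Serpina1b: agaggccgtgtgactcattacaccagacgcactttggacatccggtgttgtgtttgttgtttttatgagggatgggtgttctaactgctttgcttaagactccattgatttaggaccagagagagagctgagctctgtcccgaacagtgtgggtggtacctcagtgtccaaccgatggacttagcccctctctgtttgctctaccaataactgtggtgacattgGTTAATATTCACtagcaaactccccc
Serpina1e: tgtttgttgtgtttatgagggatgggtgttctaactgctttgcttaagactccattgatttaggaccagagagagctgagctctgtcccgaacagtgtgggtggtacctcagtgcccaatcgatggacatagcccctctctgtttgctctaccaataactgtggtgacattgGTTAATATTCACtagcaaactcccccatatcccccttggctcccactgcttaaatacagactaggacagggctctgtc
The capital block begins 26 bases before the annotated start of Serpina1b and 78 bases before that of Serpina1e, and the aligned 198 bases are 98.0% identical. GTTAAT was searched on both strands of the 250 bases and was found in 7 members (Serpina1a to Serpina1e, Serpina7 and Serpinb8) and in 6.43% of 32851 gene windows. The longer block GTTAATATTCAC, chosen after the sequences were seen and containing the shorter motif, was found in 5 windows, 0.0152% of all, and these were the 5 antitrypsin copies. A match describes letters only, and it is the same in the copy that led at E11.5 and the copy that led at P0.

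The antichymotrypsin relatives had their highest liver levels at P0. Serpina3k (ENSMUSG00000058207.6, chromosome 12, 104338486 to 104346144, plus strand), known in rodents as a kallikrein-binding protein, was listed at 509.63 and 891.45 TPM in the P0 livers, at 0 in both E16.5 livers, and at no more than 0.17 TPM in any liver library from E11.5 to E15.5. Serpina3m had 416.41 and 570.37 TPM at P0, against 0.07 and 0.1 TPM at E16.5 and 0 and 0.08 TPM at E11.5. Serpina3n, an acute-phase inhibitor that in mouse also binds granzyme B, had 1126.29 and 742.08 TPM at P0, 6.66 and 7.36 TPM at E16.5, 3.48 and 2.91 TPM at E15.5 and at most 0.86 TPM at the earlier stages. Serpina3n thus climbed over several stages before birth, while the other 2 were at or near 0 until E16.5.

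The P0 minus E11.5 changes in liver were 9.70 ± 0.20 for Serpina3n (limma adjusted p = 2.82e-30), 9.37 ± 0.12 for Serpina3k (9.89e-37) and 8.88 ± 0.08 for Serpina3m (1.74e-41). They are on the log2(TPM + 1) scale, which understates the change of genes near 0. Serpina3g, which in mouse inhibits lysosomal cathepsins, had 28.2 and 17.88 TPM at P0 and 1.95 and 1.46 TPM at E11.5, and Serpina3f had 3.59 and 2.96 TPM at P0 and at most 0.28 TPM before. The coding sequences of Serpina3k and Serpina3m are 92.6% identical and their annotated spans start at the same base, so part of the level of 1 may belong to the other. Of their 50-base stretches 86.0% for Serpina3k and 80.9% for Serpina3m are found in no other gene.

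**Figure D3:**
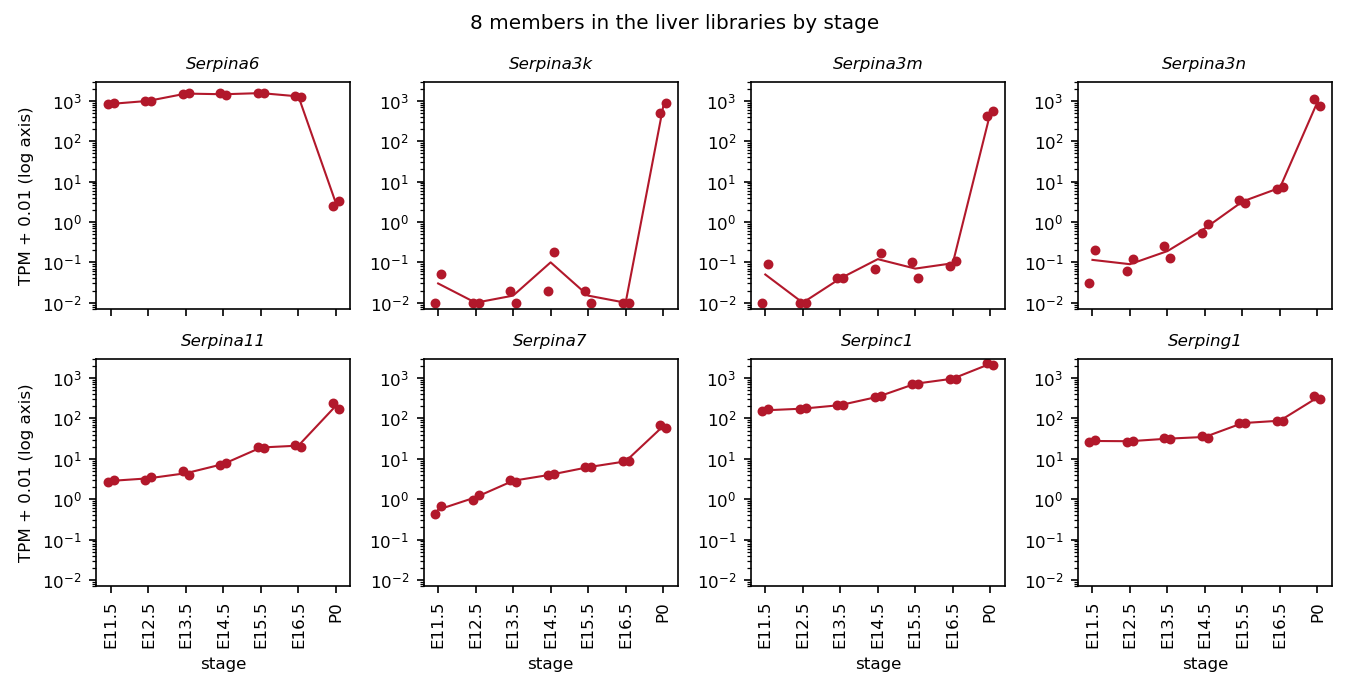
Levels of 8 members in the 14 liver libraries by stage (TPM plus 0.01, log axis); points are libraries and lines join stage means. Serpina6 stands above 800 TPM until E16.5 and at 2.5 and 3.26 TPM at P0, whereas Serpina3k and Serpina3m are near 0 until E16.5 and exceed 400 TPM at P0.

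Of the remaining clade A members, Serpina11 (ENSMUSG00000063232.12) was at 243.55 and 169.91 TPM at P0, against 22.5 and 19.95 TPM at E16.5 and 2.72 and 2.95 TPM at E11.5, a P0 minus E11.5 change of 5.74 ± 0.09 (limma adjusted p = 1.28e-33). Of its 50-base stretches 64.3% are its own and the rest occur in the annotated gene Gm28577. Serpina10 had 97.37 and 91.87 TPM at P0 and 29.39 and 30.9 TPM at E11.5. Serpina5, the protein C inhibitor, reached 1.8 and 1.71 TPM at P0 and was listed at 0 in both E11.5 livers.

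The clotting and fibrinolysis inhibitors of clades C, D and F were already transcribed in liver at E11.5 and were higher at P0. Serpinc1 had 2421.39 and 2100.4 TPM at P0, 957.61 and 974.15 TPM at E16.5 and 151.45 and 166.55 TPM at E11.5, a P0 minus E11.5 change of 3.82. Serpind1 had 313.66 and 319.42 TPM at P0 against 106.93 and 120.28 TPM at E11.5, and Serpinf2 had 1015.32 and 767.31 TPM at P0 against 348.49 and 415.42 TPM at E11.5. All 3 were higher in both P0 livers, by 1.47 for Serpind1 and 1.21 for Serpinf2. The Serpinf2 call was lost without liver E11.5 replicate 1 (change 1.085) or liver P0 replicate 1 (1.01). The spread in these fits came from all tissues, and Serpinf2 in the 2 forebrain E12.5 libraries was at 9.89 and 0.32 TPM. In a fit on only the libraries compared, all 24 calls of P0 minus E11.5 in liver were kept. Serping1, the complement inhibitor, was at 356.02 and 303.54 TPM at P0, 87.12 and 88.79 TPM at E16.5 and 25.65 and 29.69 TPM at E11.5, a change of 3.53. Serpinf1 had 711.92 and 530.3 TPM at P0 and 205.88 and 205.54 TPM at E11.5, with a low of 115.54 and 127.38 TPM at E13.5.

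Of the cell-internal clade B members 1 of 7 passed in liver. Serpinb1a had 28.33 and 31.07 TPM at P0 and 5.32 and 5.95 TPM at E11.5, a change of 2.21. Summed neutrophil and monocyte markers were 6408 to 6651 TPM at P0 and 397 to 412 TPM at E11.5, with 6 of 7 passing as higher; their part in the Serpinb1a level was not tested. Serpinb2, Serpinb6a, Serpinb6b, Serpinb8, Serpinb9 and Serpinb1b did not pass, and their liver libraries spanned 1.78 to 4.72, 19.93 to 33.99, 2.91 to 7.42, 0.1 to 0.6, 1.33 to 2.33 and 0.01 to 0.12 TPM in that order.

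The collagen chaperone and protease nexin went the other way. Serpinh1 had 366.2 and 367.09 TPM at E11.5, 147.48 and 163.24 TPM at E12.5, 60.58 and 62.07 TPM at E14.5, 47.13 and 45.84 TPM at E16.5 and 29.97 and 30.66 TPM at P0. It was lower at P0 by 3.55 on the log2 scale, and 2.56 of that had occurred by E14.5. Serpine2 had 6.1 and 5.81 TPM at P0 and 20.25 and 19.09 TPM at E11.5, a change of -1.57 that did not reach 1 under median-of-ratios scaling (-0.52) or quantile normalization (-0.74). Summed fibroblast markers in liver were 234 to 274 TPM at P0 and 516 to 549 TPM at E11.5, with 6 of 7 passing as lower and 1 as higher, and their part was not tested.

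In liver more members passed between E14.5 and P0 than between E11.5 and E14.5. Between E14.5 and E11.5, 6 members were higher and 2 lower, where 27.2% of all genes passed, 2.09% as higher and 25.1% as lower. Between P0 and E14.5, 18 were higher (14 of 27 without those that reached 1 TPM only at P0) and 1, Serpina6, was lower, where 17.6% of all genes passed, 10% as higher and 7.54% as lower. The 6 that were already higher at E14.5 were Serpina1c, Serpina1e, Serpina1d, Serpina7, Serpina11 and Serpinc1, and all 6 were also higher at P0 than at E14.5. Serpina1a (1.141) and Serpina1b (1.086) did not pass at E14.5, but passed in a fit on only the libraries compared (limma adjusted p = 0.00269 and 0.0029). With 0.1 in place of 1 added before the log, Serpina1e and Serpinc1 lost the early call (limma adjusted p = 0.0716 and 0.15). With 5 added, Serpina7 (0.707) and Serpina11 (0.667) lost it. The early count depended on scaling, with 16 higher and 1 lower under median-of-ratios scaling and 12 higher and 2 lower after leaving out haemoglobin, mitochondrial and serpin genes. Among all genes 2225 and 2380 passed under these settings in the same order, against 5077 in the main fit. Between P0 and E14.5 these settings gave 21 higher and 1 lower, and 18 higher and 3 lower. There 3745 and 4959 of all genes passed, against 3274 in the main fit. Red blood cell markers passed as higher between E14.5 and E11.5 in 5 of 6 cases, and as lower between P0 and E14.5 in all 6. Of 7 hepatocyte markers 2 passed as higher between E14.5 and E11.5 and 6 between P0 and E14.5. The part of these cell types was not tested. For 15 members the largest step between neighbouring stages of at least 1 on the log2 scale lay between E16.5 and P0, and 14 of these steps were upward; over all genes tested this held for 8.68%, and for 5.45% as an upward step. The 14 include Serpina3f, Serpina3k, Serpina3m and Serpina5, for which an upward step was fixed by the filter. The interval from E16.5 to P0 spans several days, whereas each of the others spans 1 day.

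The same comparison of P0 with E11.5 in the brain regions gave fewer members. In forebrain 10 members were higher and 1 lower, where 30.9% of all genes passed (19.2% higher, 11.8% lower). In midbrain 7 were higher and 1 lower, where 33.4% passed (18.3% and 15.1%), and in hindbrain 7 were higher and 2 lower, where 28% passed (16.2% and 11.8%). Passing as higher in all 3 regions were Serpini1, Serpine2, Serpina3n, Serpind1 and Serpinb1b, and lower in all 3 was Serpinh1.

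**Figure D4:**
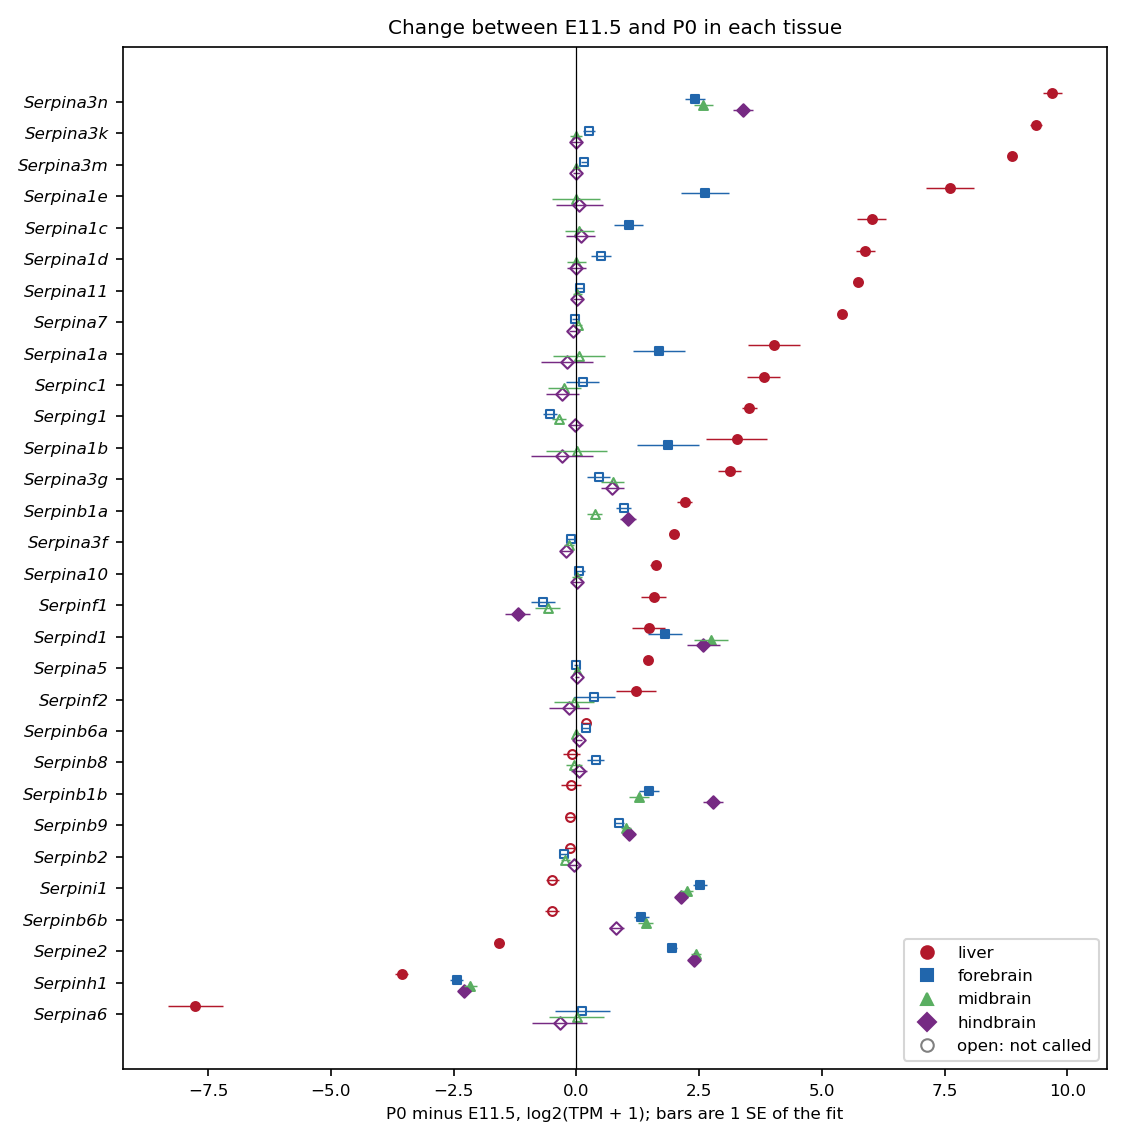
P0 minus E11.5 difference of serpin members on the log2(TPM + 1) scale in liver, forebrain, midbrain and hindbrain, with 1 standard error of the fit; filled symbols passed the test and open ones did not. The liver points run from 9.70 for Serpina3n to -7.76 for Serpina6, while Serpine2 lies at -1.57 in liver and between 1.95 and 2.44 in the brain regions.

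Whether a change differed between liver and brain was tested directly. The P0 minus E11.5 change in liver minus that in the average brain region passed in 27 of 31 members, 20 more positive in liver and 7 more negative, where 47.9% of all genes passed, 9.32% and 38.6% in those directions. The 20 include Serpina3f, Serpina3k, Serpina3m and Serpina5. These reached 1 TPM only in the P0 livers and had to be high there to be members, so their positive values are a description. The difference was 9.29 ± 0.14 for Serpina3k, 8.82 ± 0.09 for Serpina3m, -7.69 ± 0.65 for Serpina6, 6.90 ± 0.23 for Serpina3n and 6.72 ± 0.56 for Serpina1e, with limma adjusted p of 1.57e-34, 2.54e-39, 5.04e-13, 4.91e-24 and 4.25e-13. On the negative side followed Serpine2 at -3.83 ± 0.12, Serpini1 at -2.79 ± 0.15 and Serpinb1b at -1.96 ± 0.23. Serpine2 moved in opposite directions, lower in the 2 P0 livers and higher in the 6 P0 brain libraries than in the E11.5 libraries of the same tissue. Serpind1, Serpinb2, Serpinb6a and Serpinb8 did not pass.

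Neuroserpin rose in each brain region. Serpini1 in forebrain was at 2.38 TPM at E10.5, 12.87 and 15.91 TPM at E11.5, 49.22 and 56.49 TPM at E13.5, 104.67 and 100.61 TPM at E14.5 and 90.59 and 83.3 TPM at P0. In hindbrain it was at 8.39 and 5.54 TPM at E10.5, 37.06 and 31.58 TPM at E11.5, 146.51 and 133.89 TPM at E14.5 and 176.28 and 134.03 TPM at P0. In all 3 regions most of the increase was present by E14.5, and the P0 minus E11.5 change was 2.52 ± 0.13 in forebrain, 2.25 ± 0.13 in midbrain and 2.14 ± 0.13 in hindbrain. Of the 5 neuron markers 5, 5 and 4 passed as higher in the same comparisons, and their part in the neuroserpin change was not tested.

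Protease nexin differed between brain regions. Serpine2 was at 130.87 and 117.27 TPM in forebrain, 246.16 and 239.92 TPM in midbrain and 353.63 and 333.43 TPM in hindbrain at P0. At E11.5 it was at 28.98 and 33.86 TPM in forebrain, 45.84 and 42.38 TPM in midbrain and 63.98 and 65.16 TPM in hindbrain. The same order of regions, with no overlap, was thus seen at both stages. In the libraries labelled E15.5 it was at 203.46 and 202.92 TPM in midbrain and 138.73 and 116.44 TPM in hindbrain, the reverse order. Averaged over 7 stages, forebrain was below midbrain by 1.45 ± 0.04 on the log2 scale (limma adjusted p = 9.6e-26; 1.31 lower without the 4 E15.5 libraries) and below hindbrain by 1.92 ± 0.04 (1.46e-29; 1.96 lower without them). Serpine2 was the only member that passed between forebrain and midbrain, where 2.73% of all genes passed, 0.96% as higher in forebrain and 1.77% as lower. Serpinb1b was the only one between midbrain and hindbrain, where 0.97% passed (0.252% and 0.718%; 181 genes with the E15.5 libraries and 328 without them), and these 2 were the only ones between forebrain and hindbrain, where 4.32% passed (1.03% and 3.28%).

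Serpinb1b, a copy of the neutrophil protease inhibitor gene, had its highest levels in hindbrain. It was at 1.58 and 1.65 TPM in hindbrain at E11.5, 5.85 and 4.17 TPM at E13.5, 12.25 and 13.28 TPM at E14.5, 19.15 and 27.88 TPM at E16.5 and 18.81 and 15.3 TPM at P0. In forebrain it did not exceed 2.56 TPM, and in midbrain it did not exceed 2.37 TPM outside the libraries labelled E15.5. In those it was at 11.15 and 12.81 TPM in midbrain E15.5 and at 1.19 and 1.35 TPM in hindbrain E15.5, the reverse of the other stages. Midbrain was below hindbrain by 1.38 ± 0.08 on the log2 scale with all libraries (limma adjusted p = 9.67e-17) and by 2.03 without the E15.5 ones, and forebrain was below hindbrain by 1.58 ± 0.08 (2.07e-19) with them and by 1.88 without. Its neighbour Serpinb1a, with 90.7% coding identity, did not reach such levels, staying between 0.1 and 2.2 TPM in all brain libraries. Its hindbrain mean also rose, from 0.295 TPM at E11.5 to 1.715 TPM at P0. Of the 50-base stretches of Serpinb1b 96.9% are found in no other gene.

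**Figure D5:**
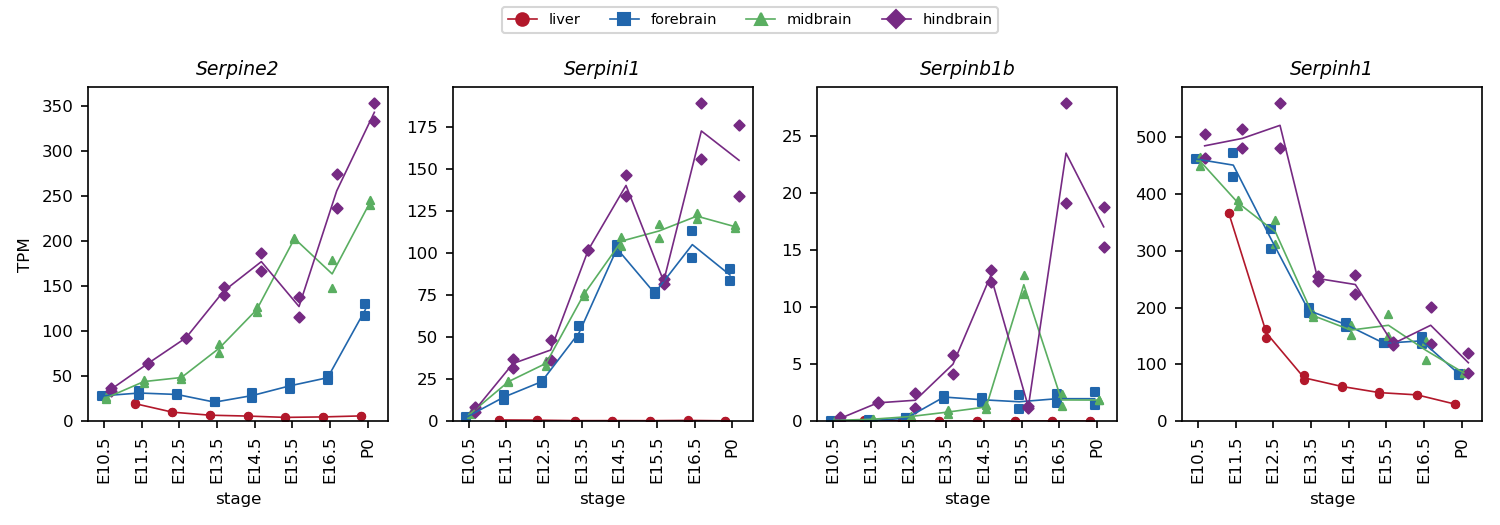
Levels of Serpine2, Serpini1, Serpinb1b and Serpinh1 (TPM, linear axes) in liver, forebrain, midbrain and hindbrain by stage; points are libraries and lines join stage means. Serpine2 and Serpini1 increase in the brain regions and stay at or below 20.25 and 0.89 TPM in liver, and Serpinh1 decreases in all 4 tissues. At E15.5 the stage mean of each gene is higher in midbrain than in hindbrain, the reverse of E14.5 and E16.5.

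Serpinh1 declined in every tissue. At P0 it was at 81.42 and 83.71 TPM in forebrain, 84.57 and 85.75 TPM in midbrain and 85.75 and 120.46 TPM in hindbrain, and at E11.5 at 472.82 and 429.31 TPM, 379.95 and 390.06 TPM, and 481.11 and 515.15 TPM in the same regions. The P0 minus E11.5 change was -2.43 in forebrain, -2.16 in midbrain and -2.28 in hindbrain, against -3.55 in liver, and the difference between liver and brain (-1.26) was no longer called under median-of-ratios scaling or quantile normalization (-0.22 under each). Of 12 collagens and collagen-folding enzymes 7 were lower at P0 in liver, 7 in forebrain, 9 in midbrain and 7 in hindbrain, and none was higher. Among all genes 38.2% were lower at P0 in liver, 11.8% in forebrain, 15.1% in midbrain and 11.8% in hindbrain. Col1a1, a chain of type I collagen, was at 16.02 and 18.73 TPM in P0 livers and 95.1 and 105.68 TPM in E11.5 livers, and at 21.6 and 24.57 TPM in P0 forebrain and 71.55 and 80.63 TPM in E11.5 forebrain. Summed fibroblast and meningeal markers decreased as well, with 5 of 7 passing as lower in each brain region, and their part was not tested.

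Other brain changes concerned members at low TPM levels that are known from blood and inflammation. Serpina3n was at 4.13 and 4.52 TPM in forebrain, 5 and 5.09 TPM in midbrain and 9.81 and 10.16 TPM in hindbrain at P0, and at no more than 0.06 TPM in any E11.5 brain library. Its P0 minus E11.5 change was 2.41 ± 0.20 in forebrain, 2.59 ± 0.20 in midbrain and 3.40 ± 0.20 in hindbrain. Alb at P0 was 14.25 and 28.35 TPM in forebrain, 0.05 and 0.07 TPM in midbrain and 0.11 and 0.08 TPM in hindbrain; in the midbrain and hindbrain libraries of E16.5 whose titles say P0 it was 15.71 and 13.85 TPM, and its part was not tested. All 5 astrocyte markers passed as higher in each region, and their part was not tested. Serpind1 was at 2.62 and 2.82 TPM in forebrain, 6.51 and 5.48 TPM in midbrain and 3.32 and 8.71 TPM in hindbrain at P0, against at most 0.14 TPM in any of them at E11.5. Serpinb9, an inhibitor of granzyme B, was at 2.47 and 2.46 TPM in midbrain and 3.04 and 3.34 TPM in hindbrain at P0, against 0.72 and 0.73 TPM and 0.97 and 1.01 TPM at E11.5. Its changes of 1.01 in midbrain and 1.07 in hindbrain no longer passed with the stages of the sample titles (0.71 and 0.90) or under quantile normalization (0.71 and 0.76). Serpinb6b was called in forebrain (1.32) and midbrain (1.41).

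In forebrain 4 antitrypsin copies passed, and 3 of these calls rested on single libraries. Serpina1e was at 6.52 and 7.2 TPM in P0 forebrain and 0.64 and 0 TPM in E11.5 forebrain, a change of 2.62 that passed. Serpina1a, Serpina1b and Serpina1c also passed, but each lost the call without forebrain E11.5 replicate 2 (limma adjusted p = 0.124, 0.187 and 0.0665) and without forebrain P0 replicate 2. Alb was at 14.25 and 28.35 TPM in P0 forebrain and 8.82 and 0.05 TPM in E11.5 forebrain, and its part was not tested. In hindbrain, Serpinb1a (1.05) and Serpinf1 (-1.20) were called, each losing the call when 1 library was left out: Serpinb1a without hindbrain E11.5 replicate 1 (0.89) or P0 replicate 2 (0.79), and also with the stages of the sample titles (0.79), and Serpinf1 without P0 replicate 1 (-0.67).

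Protease genes, among them targets of plasma serpins, in lists chosen with results of these data known, were mostly higher in liver too. Among all genes 9.33% were higher in liver than in brain and 8.14% higher in P0 than in E11.5 liver. Of 10 coagulation and fibrinolysis proteases 8 were higher in liver than in brain and 8 were higher in P0 than in E11.5 liver, while Plat, the tissue plasminogen activator, was lower in both and Plau, urokinase, did not pass. Thrombin's gene F2 was at 1253.08 and 1048.53 TPM in P0 livers and 91.44 and 106.3 TPM in E11.5 livers, and the plasmin precursor Plg was at 1605.99 and 1295.56 TPM and 129.02 and 155.66 TPM in the same order. The largest P0 minus E11.5 changes of this list were those of F11 (4.83 ± 0.05), F9 (4.69 ± 0.07) and Proc (3.68 ± 0.13). Of 4 complement proteases 3 were higher in liver than in brain and 4 at P0, and of 6 leukocyte proteases 4 and 5 were. Elane, the elastase that antitrypsin inhibits, was at 94.14 and 74.2 TPM in P0 livers and 5.24 and 5.29 TPM in E11.5 livers. Of 4 membrane and kallikrein proteases tested 2, Hpn and Tmprss6, were higher in both comparisons and Klk8 was lower at P0, and of 5 cathepsins 4 were higher in liver than in brain and 3 at P0.

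Plat, whose product neuroserpin and protease nexin inhibit, changed in 1 brain region. Plat was at 36.88 and 34.43 TPM in P0 forebrain and 25.16 and 25.78 TPM in E11.5 forebrain, which did not pass, and at 77.38 and 85.68 TPM in P0 hindbrain and 32.34 and 29.88 TPM in E11.5 hindbrain, a change of 1.36 ± 0.12 that passed. In liver it was at 0.9 and 1.01 TPM at P0 and 13.77 and 17.05 TPM at E11.5. Of 8 cofactors and uptake receptors of serpins 6 were lower in liver than in brain, led by Lrp8, Sort1 and Vldlr (-3.82, -2.62 and -2.60), and 2 were higher, Vtn, a plasma adhesion protein (2.51 ± 0.06), and Plaur (1.14 ± 0.04). Among all genes 44% were lower and 9.33% higher in this comparison.

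Protease inhibitors without the serpin fold were also mostly higher in liver. Of 16 such genes 12 were higher in liver than in brain and none lower, and 13 were higher and 1, Tfpi, lower at P0 than at E11.5. Among all genes 9.33% and 8.14% were higher in these comparisons. Hrg (8.65 ± 0.08), Fetub (8.22 ± 0.09) and Ahsg (8.12 ± 0.54) had the largest P0 changes, and Ahsg, a hepatocyte marker here, reached 33875.19 and 29731.68 TPM. Agt, the precursor of angiotensin, has the serpin fold under another symbol. It was at 559.08 and 514 TPM in P0 livers and 9.68 and 10.82 TPM in E11.5 livers, and at 49.74 and 51.91 TPM in P0 hindbrain and 0.11 and 0.07 TPM in E11.5 hindbrain, passing as higher in all 4 tissues (5.58 in liver, 3.85 in forebrain, 5.01 in midbrain and 5.57 in hindbrain). Unlike in 27 of the 31 members, its change did not pass as different between liver and brain.

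The members lie at 12 loci, of which 8 hold 1 member and 4 hold 2 or more. On chromosome 12, between bases 103614786 and 104414329 of mm10, 28 rows of the pattern include 14 members, all of clade A, and Serpina7 is the single clade A member elsewhere. Within this stretch neighbours ran in opposite directions in liver, with Serpina6 at 2.5 and 3.26 TPM and the next member at lower coordinates, Serpina10, at 97.37 and 91.87 TPM at P0, while other rows of the cluster such as Serpina12, Serpina16, Serpina1f and Serpina9 did not exceed 0.36 TPM in any library. On chromosome 13, between 32842092 and 34002794, 16 rows of clade B include 5 members, and on chromosome 1, between 106861173 and 107610484, 12 rows include 2, Serpinb2 and Serpinb8. Serpinf1 and Serpinf2 are neighbours on chromosome 11 and differed most in brain, where Serpinf1 was at 14.43 to 118.14 TPM and Serpinf2 at 0.01 to 9.89 TPM. Their lowest liver levels were 115.54 and 348.49 TPM.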

How the data were processed

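Per the labels' protocols, RNA was purified with a kit for lipid-rich tissue and libraries were made with a stranded kit for polyadenylated RNA from 4 µg. The authors deposited 1 table of TPM values, estimated per gene; the submitters' processing notes name STAR 2.4.0k, RSEM 1.2.23 and mm10 (GRCm38). Read counts and depth are not given, so no count test or counting interval was possible, and how reads were shared among near-identical copies cannot be checked. The annotation used for the table is not given in the sources used here.

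Tissue and stage came from the labels. Values were taken as log2(TPM + 1), and 18655 of 43346 rows with at least 1 TPM in at least 2 libraries were fitted with limma 3.58.1 (R 4.3.3), with 1 mean per tissue and stage over 61 libraries, a mean-variance trend and Benjamini-Hochberg adjustment over all genes. Rows passed at an adjusted p below 0.05 and a change of at least 1 on the log2 scale. The spread of a gene was taken from the libraries of all tissues, also for comparisons within liver. Fold changes on this scale understate those of low genes. The script was tested on simulated data. No 2 columns were identical.

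The members and lists were chosen with earlier results of these data known. Results of 1 member by itself are not reported here, although the counts include that member. The others are named, with full statistics for up to 8 called members of largest change per comparison, and up to 3 called and 1 uncalled member of each list; any other gene was named after its values were seen. There were 11 comparisons, 15 other settings and 1 more, chosen after seeing the data, which keeps the 44 libraries with at least 50 TPM of Mir719 plus Gm12191. Sequences were compared with Biopython 1.88. Klkb1 was not analysed here.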

Additional observations from a re-analysis of the deposited data

Results flagged for a closer look

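The P0 minus E11.5 change was tested for a difference between liver and the average brain region, and 27 members passed (limma adjusted p below 0.05 and a difference of at least 1 on the log2 scale). Among all genes tested, 47.9% passed. Serpina3f, Serpina3k, Serpina3m and Serpina5 reached 1 TPM only in the P0 livers and had to be high there to be members. The values below are the change in liver minus the change in brain.

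Among antichymotrypsin relatives the difference was 9.29 for Serpina3k, 8.82 for Serpina3m, 6.9 for Serpina3n, 2.48 for Serpina3g and 2.15 for Serpina3f. Among antitrypsin copies it was 6.72 for Serpina1e, 5.72 for Serpina1d, 5.61 for Serpina1c, 3.51 for Serpina1a and 2.74 for Serpina1b. Among the hormone carriers it was 5.42 for Serpina7 and -7.69 for Serpina6. For the other clade A members it was 5.7 for Serpina11, 1.59 for Serpina10 and 1.45 for Serpina5.

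Among inhibitors of clotting, fibrinolysis and complement it was 3.95 for Serpinc1, 3.83 for Serping1 and 1.16 for Serpinf2, and it was 2.39 for Serpinf1. In clade B it was 1.41 for Serpinb1a, -1.12 for Serpinb9, -1.68 for Serpinb6b and -1.96 for Serpinb1b. The members that brain holds at higher levels had -1.26 for Serpinh1, -2.79 for Serpini1 and -3.83 for Serpine2. The Serpinh1, Serpinb9 and Serpinb6b differences did not pass under median-of-ratios scaling or quantile normalization. The Serpinf2 difference was lost without liver E11.5 replicate 1 (1.029) and without liver P0 replicate 1 (0.953). With a pseudocount of 0.1 the calls of Serpinf2 and Serpina1b (limma adjusted p = 0.174 and 0.109) and Serpinb1a (0.727) were lost. With a pseudocount of 5 those of Serpina3f, Serpina5, Serpinb1b, Serpinb6b and Serpinb9 were lost. Serpinb9 also lost its call with the stages of the sample titles (-0.961).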

How the results depend on the processing

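With a pseudocount of 0.1 the counts of members that passed were 6 for forebrain minus midbrain, 2 for midbrain minus hindbrain, 7 for forebrain minus hindbrain and 19 for P0 minus E11.5 in forebrain. Of all genes 1077, 467, 1709 and 7510 passed in the same order. With a pseudocount of 5 the members were 0 for midbrain minus hindbrain (61 genes of all passed) and 1 for forebrain minus hindbrain (294). For P0 minus E11.5 they were then 4 in forebrain (3659 genes of all) and 5 in midbrain (4015). For E14.5 minus E11.5 in liver, median-of-ratios scaling gave 17 and rescaling without haemoglobin, mitochondrial and serpin genes gave 14, against 8. The genes of all that passed were 2225 and 2380, against 5077. The change in liver passed as above that in brain in 20 members and as below it in 7, where 8932 of all genes passed. Quantile normalization made this 20 and 4 (6937 genes of all), and scaling by the median of ratios made it 21 and 4 (7216). The median liver minus brain difference of all genes was -0.82 as deposited, -0.02 under median-of-ratios scaling and 0.01 under quantile normalization. Serpinb6a passed as higher in liver under median-of-ratios scaling (1.05), and Serpinb9 under both of these scalings (1.17 and 1.45). Serpina5 passed as higher in liver with a pseudocount of 0.1 (1.28).

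Leaving out each library in turn gave 25 to 25 members for liver minus brain, 1 to 1 for forebrain minus midbrain, 1 to 1 for midbrain minus hindbrain, 2 to 2 for forebrain minus hindbrain, 23 to 24 for P0 minus E11.5 in liver, 8 to 12 in forebrain, 8 to 8 in midbrain, 8 to 9 in hindbrain, 26 to 28 for the difference of changes, 8 to 10 for E14.5 minus E11.5 and 19 to 21 for P0 minus E14.5 in liver. In the added alternative of 44 libraries, 16 members were higher and 4 lower in liver than in brain, where 9367 of all genes passed. These averages hold neither P0, since no P0 midbrain library is among the 44, nor E15.5. Serpina3g, Serpina3k, Serpina3m, Serpina3n and Serping1 no longer passed (0.83, 0.015, 0.064, 0.415 and 0.717). P0 minus E11.5 in midbrain and the difference of changes could not be fitted. No member's direction reversed where it had passed. With the replicate block, E14.5 minus E11.5 in liver had 9 members and no other count of members changed. The differences between replicates 1 and 2 had a median correlation of 0.003 over 378 pairs of groups, with a range of -0.634 to 0.32. Most of these pairs join different stages. The median therefore cannot show whether replicate numbers pair tissues of the same stage. The causes were not tested, and depth is unknown.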

Other observations

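Antitrypsin copies in some brain libraries did not have the proportions seen in liver of the stage in the column header. In midbrain E14.5 replicate 2, with 22.81 TPM of Alb, Serpina1e stood at 6.77 TPM and Serpina1b at 5.69 TPM, a ratio of 1.19, against ratios of 0.205 and 0.188 in the 2 livers of E14.5. In midbrain E16.5 replicate 3, a library whose sample title says P0, they stood at 7.45 and 4.58 TPM, a ratio of 1.63, against 0.414 and 0.376 in livers of E16.5. In these 2 midbrain libraries Serpina6 was 0.701% and 0.509% of Alb, while it was 14.8% and 13.3% in the livers of E14.5 and 3.52% and 2.73% in the livers of E16.5. These midbrain shares rest on 0.16 and 0.08 TPM of Serpina6, values near 0. In P0 livers the Serpina1e to Serpina1b ratio was 2.62 and 1.8 and Serpina6 was 0.00313% and 0.00412% of Alb. The 2 midbrain libraries are among 13 brain libraries with at least 10 TPM of Alb. Hindbrain E16.5 replicate 3, whose title also says P0, had a ratio of 0.282 and Serpina6 at 2.53% of Alb. In the 5 E12.5 brain libraries among the 13 the ratio was 0.101 to 0.142, against 0.124 and 0.134 in livers of E12.5. The source of the antitrypsin and Serpina6 transcripts in brain libraries was not tested.

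Serpinb10, which the annotation does not class as protein-coding and which is therefore no member, was at 1 TPM or more in all 14 liver libraries, with a highest value of 5 TPM. Serpina4-ps1, a pseudogene row, was at 10.22 and 10.35 TPM in the P0 livers.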
